A study of Mus musculus with 11 samples.

Results

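This account is of the hippocampus 7 d after photothrombosis (PT) in mice without levetiracetam, and it sets the side of the brain that carries the infarct against the other side. Each side is 1 library, labelled PT 7 d infarcted (left hemisphere) and PT 7 d non-infarcted (right hemisphere), so the pair is 2 of the 11 libraries in the series. In the PT model, the dye rose bengal is given into the abdomen (35 mg/kg) and a 3.5 mm circle over the left parietal lobe is lit for 30 min (565 nm, 200 mW), which clots the vessels beneath the light. The light was aimed at the parietal region, and the RNA came from the whole hippocampus.

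The mice were C57BL/6N males, and the series names ages of 8 to 10 and 65 to 85 weeks without saying which library came from which age. Whether the sides of a condition came from 1 set of mice, and how many mice a library held, cannot be read from the labels. The other libraries were the infarcted and non-infarcted sides of 4 further PT conditions, which served as the background for how far sides can differ, and a naive library from untreated mice. These conditions were 7 d with levetiracetam (PT 7 d LEV), 1 month without it (PT 1 m), 1 month with it (PT 1 m LEV), and 2 months after PT with levetiracetam withdrawn (PT 2 m LEV withdrawal), for 2 weeks by the labels but 1 week by the design text. Levetiracetam is an anti-seizure drug, which the mice drank in their water (5 mg/mL). By the design text it began 1 month after PT, so its timing in the PT 7 d LEV mice is not known.

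Cap analysis of gene expression (CAGE) reads the capped 5′ ends of transcripts, so that each read marks a place where transcription began. Values are in CPM, which divides the reads of each gene by all reads of its library so that libraries of unequal depth can be set side by side. The PT 7 d infarcted library held 17501789 reads and the PT 7 d non-infarcted library 16053691, of which 96.08% and 93.66% fell in the listed genes. Over all 11 libraries the totals were 13382623 to 22377376 and these shares 93.01% to 96.08%. A gene without a read can stand at up to 0.171 CPM in the PT 7 d infarcted library and up to 0.187 CPM in the PT 7 d non-infarcted library (3 reads, counting error only). The tissue was checked by its own genes. Prox1, the transcription factor of dentate granule cells, stood at 62.6 CPM on the infarcted side, against 68.0 CPM on the non-infarcted side. Grik4, a kainate receptor subunit of CA3, stood at 51.5 and 48.3 CPM in the same order, and Fibcd1 of CA1 at 50.3 and 50.6 CPM.

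When brain tissue dies, microglia, the resident macrophages, leave their resting state, multiply, and take up debris, myelin and lipid into lysosomes. They make complement, proteases and lectins while doing so, and macrophages from the blood can join them. Astrocytes at the border of the damage enlarge, make intermediate filaments such as GFAP, and help to wall off the lesion, while matrix proteins fill the space. The hippocampus lies under the parietal cortex and is known for neurons that are sensitive to a loss of blood supply.

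Because CAGE maps the starts of transcripts, the promoters of 5 genes that passed the test described further below are shown: 3 phagocyte genes, a lysosomal protease and a histone gene. Mmp12 (macrophage elastase), Gpnmb (a membrane glycoprotein of phagocytes), Cd68 (a lysosomal glycoprotein of macrophages), Ctsd (the lysosomal protease cathepsin D) and H3c2 (a histone H3 gene) were chosen. Each sequence runs from 250 bases before to 50 bases after the gene's start in RefSeq on GRCm38.p6, 5′ to 3′ along the gene. The windows are chr9:7344147-7344446 on the plus strand for Mmp12, chr6:49036268-49036567 on the plus strand for Gpnmb, chr11:69666121-69666420 on the minus strand for Cd68, chr7:142387778-142388077 on the minus strand for Ctsd, and chr13:23752095-23752394 on the plus strand for H3c2. Capitals mark matches, on either strand, to 5 short motifs. They are the AP-1 site TGANTCA, the E-box CACGTG, the letters GAGGAAGT bound by the myeloid factor PU.1, the CCAAT box CCAAT and the TATA box TATAAA.
Mmp12: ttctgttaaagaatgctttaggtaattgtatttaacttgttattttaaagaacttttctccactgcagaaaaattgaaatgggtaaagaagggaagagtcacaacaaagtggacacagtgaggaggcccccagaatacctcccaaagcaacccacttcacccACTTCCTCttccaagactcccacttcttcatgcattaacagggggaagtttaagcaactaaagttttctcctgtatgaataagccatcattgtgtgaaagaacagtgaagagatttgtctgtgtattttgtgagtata
Gpnmb: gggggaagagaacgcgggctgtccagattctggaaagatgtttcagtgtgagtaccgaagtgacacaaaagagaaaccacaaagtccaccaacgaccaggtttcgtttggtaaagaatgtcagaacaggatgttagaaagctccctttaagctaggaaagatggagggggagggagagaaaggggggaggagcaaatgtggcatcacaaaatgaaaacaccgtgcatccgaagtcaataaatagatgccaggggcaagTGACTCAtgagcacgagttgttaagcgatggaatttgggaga
Cd68: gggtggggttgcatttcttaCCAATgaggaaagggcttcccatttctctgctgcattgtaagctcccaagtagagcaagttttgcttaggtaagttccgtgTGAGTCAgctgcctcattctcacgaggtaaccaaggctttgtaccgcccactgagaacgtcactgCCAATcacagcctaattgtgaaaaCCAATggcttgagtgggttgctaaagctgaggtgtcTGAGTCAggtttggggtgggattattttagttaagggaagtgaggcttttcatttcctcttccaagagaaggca
Ctsd: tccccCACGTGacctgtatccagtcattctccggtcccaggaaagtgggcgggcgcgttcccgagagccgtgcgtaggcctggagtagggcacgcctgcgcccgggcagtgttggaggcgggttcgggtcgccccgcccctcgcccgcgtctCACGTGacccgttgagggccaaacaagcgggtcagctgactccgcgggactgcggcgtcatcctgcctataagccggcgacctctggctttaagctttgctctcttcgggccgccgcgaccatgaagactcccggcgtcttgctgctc
H3c2: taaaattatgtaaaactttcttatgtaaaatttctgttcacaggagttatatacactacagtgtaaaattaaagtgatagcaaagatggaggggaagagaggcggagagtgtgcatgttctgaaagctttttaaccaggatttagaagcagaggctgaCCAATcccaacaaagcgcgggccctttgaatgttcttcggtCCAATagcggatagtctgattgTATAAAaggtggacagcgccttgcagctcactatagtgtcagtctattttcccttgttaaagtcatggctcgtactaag

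Mmp12 held a PU.1 match beginning 88 bases before the start shown, and Gpnmb an AP-1 match 8 bases after it. Cd68 held AP-1 matches 149 and 24 bases before the start and 3 CCAAT boxes. Ctsd held E-boxes at 245 and 98 bases before the start, and H3c2 held CCAAT boxes at 92 and 51 and a TATA box at 29 bases before it. RefSeq gives Mmp12 another start, whose window chr9:7347124-7347423 is not printed and held an AP-1 match 44 bases before and a TATA box 4 bases after that start. The promoters of Spp1, Lgals3, Lyz2, Lcn2 and H2ac10 were searched as well and are not printed. Those of Lyz2, which also passed the test, and of Lcn2 held no match. The Spp1 window chr5:104435942-104436241 held none either, while the remaining windows held matches. Among all 32851 mouse promoters of this length, AP-1 was matched in 7.81%, the E-box in 7.15%, PU.1 in 3.2%, CCAAT in 37.4% and TATAAA in 13.6%. A match is a description of these letters and does not show that a factor was bound.

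A side difference is log2(CPM + 1) on the infarcted side minus log2(CPM + 1) on the non-infarcted side, and this scale understates the change of genes near 0. Of 22377 genes in the table, 16057 had a mean of at least 1 CPM over the 11 libraries and were compared. This mean includes the PT 7 d infarcted library, so a gene high in that library alone can enter the comparison through it. At 7 d without levetiracetam, 137 of them (0.853%) were higher on the infarcted side by at least 1 on this scale, and 12 (0.0747%) were lower by at least 1. The intervals of counting error of the sides (exact Poisson, 95%) did not overlap for any of these genes. The same count was 133 higher (0.828%) and 0 lower in PT 7 d LEV, and 7 higher (0.0436%) and 63 lower (0.392%) in PT 1 m. It was 54 higher (0.336%) and 0 lower in PT 1 m LEV, and 70 higher (0.436%) and 1 lower (0.00623%) in PT 2 m LEV withdrawal. Of the 137, 20 (14.6%) were also among the 133 of PT 7 d LEV (15.0% of those), 1 was among those of PT 1 m, 1 among those of PT 1 m LEV and 0 among those of PT 2 m LEV withdrawal. Replication-dependent histone genes gave 14 of the 137, and members of the other gene lists gave 56. The median over all 16057 genes was 0.038, with an SD of 0.260 across genes.

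With 1 library a side, a pair cannot be tested on its own. Limma therefore asked whether the side difference of a gene at PT 7 d differed from the mean of the other 4 pairs, whose spread is the only estimate of error. The test assumes that the PT 7 d pair varies like the others. This spread covers time and levetiracetam as well as error. It called 25 genes higher (0.156% of those tested) and 3 lower (0.0187%) at a Benjamini-Hochberg adjusted p under 0.05. Tested against 0 in place of the other pairs, 75 genes were higher (0.467%) and 3 lower. Of the 28 called against the other pairs, 24 have names of their own, and the others are a pair of genes with the same reads and predicted genes. The count rests heavily on 1 background pair: without PT 1 m LEV the test called 1 gene higher and 0 lower, and without PT 7 d LEV 48 higher and 3 lower. Without PT 1 m it called 33 higher and 11 lower, and without PT 2 m LEV withdrawal 26 higher and 9 lower.

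**Figure D1:**
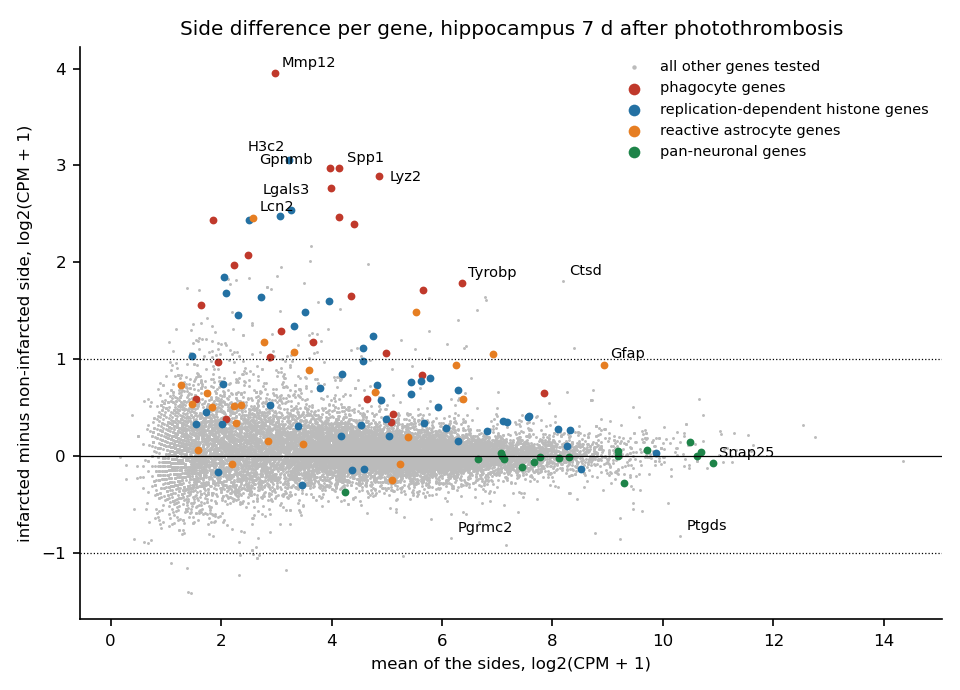
Each point is 1 of the 16057 genes compared, with the mean of both sides on the horizontal axis and the infarcted minus non-infarcted difference at 7 d on the vertical axis, both in log2(CPM + 1); dotted lines mark differences of 1 and -1. Phagocyte genes (red) and some histone genes (blue) stand highest, with Mmp12 at 3.95, while pan-neuronal genes (green) lie between -0.37 and 0.14.

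Phagocyte genes were the group with the highest median side difference among the lists examined. All 26 members compared were higher on the infarcted side, 18 of them by at least 1, with a median of 1.61 against 0.038 over all genes. For comparison, 59.4% of all genes lay above 0 at PT 7 d, 52.2% in PT 7 d LEV, 56.7% in PT 1 m, 48.7% in PT 1 m LEV and 54.8% in PT 2 m LEV withdrawal. The medians of the same 26 genes were 0.53 in PT 7 d LEV, 0.01 in PT 1 m, 0.23 in PT 1 m LEV and 0.37 in PT 2 m LEV withdrawal. The test called 9 of the 26, and 24 had their highest side difference of the 5 pairs at PT 7 d, where 25.0% of all genes did. A further 5 members had too few reads to be compared, and these were also higher on the infarcted side. Over all 31 in the table, with no filter, the median was 1.56 and 21 lay at 1 or more.

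Mmp12 (ENSMUSG00000049723.14, chromosome 9, 7344381 to 7369499) encodes the elastase that macrophages secrete to cut elastin and other matrix proteins. It stood at 29.9 CPM on the infarcted side (95% interval of counting error 27.4 to 32.6, from 524 reads) and at 0.997 CPM on the non-infarcted side (0.570 to 1.62, from 16 reads). The 8 other PT libraries held 0.0447 to 2.29 CPM and the naive library 0.0714 CPM. The infarcted side at 7 d was thus the only library with more than a few CPM of this gene. Its side difference of 3.95 (95% interval from the fit 3.32 to 4.59) compared with -0.09 to 0.29 in the other pairs, a gap of 3.82 (SE 0.33, limma with Benjamini-Hochberg adjustment, adjusted p = 0.00110).

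Gpnmb (ENSMUSG00000029816.10, chromosome 6, 49036546 to 49070929) encodes a glycoprotein that phagocytes carry when their lysosomes are loaded. It stood at 43.1 CPM on the infarcted side, against 4.61 CPM on the non-infarcted side, with 1.78 to 7.39 CPM in the other PT libraries and 2.07 CPM in naive. Its side difference was 2.97, against 0.04 to 0.82 in the other pairs (limma, adjusted p = 0.00895). The infarcted library did not overlap with any of the other 10. Lgals3 (ENSMUSG00000050335.17, chromosome 14, 47367751 to 47386160), the galectin that gathers at damaged lysosomes, stood at 40.7 CPM on the infarcted side, against 5.11 CPM on the non-infarcted side. Its other PT libraries held 2.37 to 9.16 CPM, and its side difference of 2.77 compared with 0.28 to 0.96 (limma, adjusted p = 0.0106).

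Cd68 (ENSMUSG00000018774.13), the classic stain for phagocytic macrophages, stood at 47.6 CPM on the infarcted side, against 8.22 CPM on the non-infarcted side. The naive library held 10.1 CPM and the other PT libraries 9.21 to 17.2 CPM, so the non-infarcted side was the lowest of all libraries and the infarcted side the highest. Its side difference was 2.40, against -0.08 to 0.83 in the other pairs (limma, adjusted p = 0.0128). Lyz2, a lysozyme of myeloid cells, stood at 77.8 CPM on the infarcted side, against 9.66 CPM on the non-infarcted side. Its side difference of 2.89 compared with 0.11 to 1.40 in the other pairs (limma, adjusted p = 0.0446).

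The remaining called members of the list were surface and signalling proteins of myeloid cells. Cd52, a small surface glycoprotein, stood at 40.3 CPM on the infarcted side, against 6.48 CPM on the non-infarcted side (limma, adjusted p = 0.0128). Cd84, a receptor of the SLAM family, stood at 10.6 and 1.74 CPM in the same order (limma, adjusted p = 0.0386). Tyrobp, the adaptor through which TREM2 signals, stood at 151 CPM on the infarcted side, against 43.2 CPM on the non-infarcted side, with 46.3 to 84.2 CPM in the other PT libraries (limma, adjusted p = 0.0106). Fcer1g, the shared signalling chain of Fc receptors, stood at 90.3 and 26.9 CPM in the same order (limma, adjusted p = 0.0434). Each of these was highest in the infarcted library of PT 7 d. Capg, an actin-capping protein of macrophages that is in none of the lists, was also called, at 14.3 CPM on the infarcted side, against 3.24 CPM on the non-infarcted side (limma, adjusted p = 0.0446).

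Several phagocyte genes with wide side differences did not pass. Spp1 (osteopontin, a secreted phosphoprotein) stood at 48.0 CPM on the infarcted side, against 5.23 CPM on the non-infarcted side. Its side difference of 2.97 was as wide as that of Gpnmb, but its other pairs ranged from -0.48 to 2.01, the highest in PT 7 d LEV (limma, adjusted p = 0.419). Clec7a, the dectin receptor for fungal glucans that marks activated microglia, stood at 7.43 CPM on the infarcted side, against 0.561 CPM on the non-infarcted side (limma, adjusted p = 0.140). Trem2, a lipid receptor of microglia, stood at 35.0 CPM on the infarcted side, against 10.5 CPM on the non-infarcted side (limma, adjusted p = 0.0797). Both differed more between the sides at PT 7 d than in any other pair. The narrowest difference of the list was 0.36 for Axl, a receptor for dying cells.

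A few members too low to be compared had many more reads on the infarcted side. Msr1, a scavenger receptor of macrophages, had 58 reads on the infarcted side (3.31 CPM, 2.52 to 4.28) and 3 on the non-infarcted side (0.187 CPM, 0.0385 to 0.546). Cst7, a cystatin of activated microglia, had 74 and 11 reads in the same order, and Cybb, a subunit of the phagocyte oxidase, 27 and 2. Outside the list, Mpeg1, a pore-forming protein of macrophages, stood at 25.3 CPM on the infarcted side, against 4.86 CPM on the non-infarcted side (limma, adjusted p = 0.0680). Wfdc17, a small secreted protein, stood at 15.6 and 3.30 CPM in the same order (limma, adjusted p = 0.361).

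**Figure D2:**
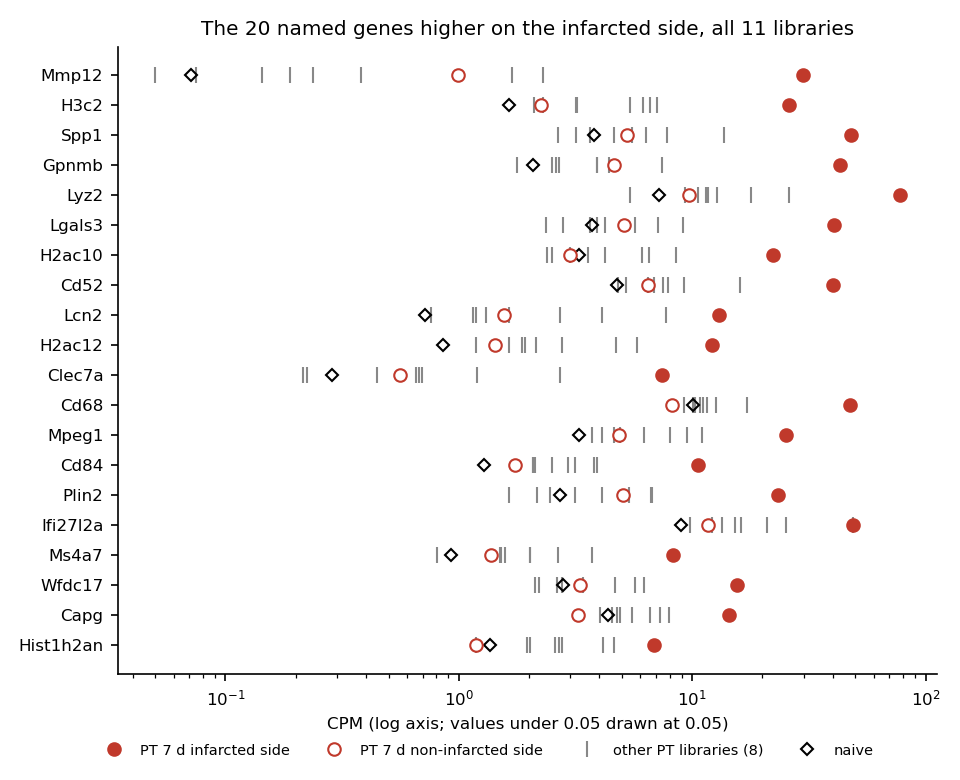
CPM on a log axis in all 11 libraries for the 20 genes with the widest difference in favour of the infarcted side; filled circles are the PT 7 d infarcted library, open circles PT 7 d non-infarcted, grey bars the 8 other PT libraries and diamonds the naive library, each 1 value with no error bar. The filled circle lies to the right of every other library for each gene, at 29.9 CPM for Mmp12 where the next highest library holds 2.29 CPM, and for Ifi27l2a only just, at 49.1 against 49.06 CPM.

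Genes that mark microglia at rest were higher on the infarcted side as well, by less. All 16 lay above 0, 6 of them by at least 1, with a median of 0.62. The medians of the other pairs were 0.36 in PT 7 d LEV, 0.10 in PT 1 m, 0.14 in PT 1 m LEV and 0.13 in PT 2 m LEV withdrawal, and the test called 2 members. Fcrls, an Fc receptor-like protein found on microglia, stood at 22.5 CPM on the infarcted side, against 6.79 CPM on the non-infarcted side (side difference 1.59, limma, adjusted p = 0.0446). The other PT libraries stayed below the infarcted side, with at most 10.4 CPM of Fcrls.

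Members often used to recognise resting microglia had narrower differences. P2ry12, the purine receptor that guides microglial processes, stood at 30.5 CPM on the infarcted side, against 21.1 CPM on the non-infarcted side (0.51). Tmem119, a membrane protein of microglia, stood at 19.7 and 12.4 CPM in the same order (0.63). Cx3cr1, the fractalkine receptor, stood at 34.9 and 22.5 CPM (0.61), and none of these passed (limma, adjusted p between 0.774 and 0.845). Summed over the list, resting microglia genes gave 922 CPM on the infarcted side, against 488 CPM on the non-infarcted side, a ratio of 1.89, and phagocyte genes 1200.3 and 466 CPM, a ratio of 2.58. In whole tissue, more cells of a type and more RNA per cell cannot be told apart, here or in any of the groups that follow.

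Markers of blood leukocytes and border macrophages were counted beside these groups, since such cells share phagocyte genes. Only 6 of their 19 members in the table were high enough to be compared, and none of them was called. In sum they held 27.1 CPM on the infarcted side, against 16.5 CPM on the non-infarcted side, within the 12.2 to 30.8 CPM of the other PT libraries and above the 13.4 CPM of naive. The monocyte receptor Ccr2 and the B cell gene Cd79a had 0 reads on both sides, Ly6c2 of inflammatory monocytes had 1 read on the infarcted side and 0 on the other, and Cd3e of T cells had 3 and 4. The neutrophil genes S100a8 and S100a9 stood at 5.09 and 4.80 CPM on the infarcted side, against 3.11 and 3.30 CPM on the non-infarcted side. Arg1, the arginase of infiltrating and repair-type macrophages, was the exception, with 78 reads on the infarcted side (4.46 CPM, 3.52 to 5.56) and 4 on the non-infarcted side (0.249 CPM, 0.0679 to 0.638). No other PT library held more than 0.490 CPM of Arg1. The part that blood-derived cells have in the phagocyte genes was not tested.

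Complement genes were split by role. The 3 chains of C1q, the recognition part of the classical pathway that microglia make in the brain, were all called. C1qa stood at 194 CPM on the infarcted side, against 61.2 CPM on the non-infarcted side (limma, adjusted p = 0.00808). C1qb stood at 166 and 57.9 CPM in the same order (adjusted p = 0.0247), and C1qc at 193 and 62.6 CPM (limma, adjusted p = 0.00895). All 3 infarcted values lay above the highest of the other libraries, which were 101 to 118 CPM. The receptors followed without passing: C3ar1, for the C3a fragment, stood at 8.00 CPM on the infarcted side, against 1.56 CPM on the non-infarcted side (limma, adjusted p = 0.164). C5ar1, for C5a, had 70 and 15 reads in the same order (side difference 1.37), and Itgb2, a chain of complement receptor 3, at 12.6 and 3.11 CPM. C4b, which follows C1q in the cascade, stood at 45.9 CPM on the infarcted side, against 24.1 CPM on the non-infarcted side, a side difference of 0.90 within reach of the 0.78 of another pair. Cd55, a regulator that protects cells from complement, lay the other way at -0.19. Over the 12 genes compared the median was 1.14, with 10 above 0 and 7 highest of the 5 pairs. Over all 15 in the table, low genes included, it was 0.48. C3 itself had too few reads to be compared, with 22 on the infarcted side and 12 on the other.

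Lysosomal genes were higher on the infarcted side throughout, since all 17 compared lay above 0, with a median of 0.72 and 6 at 1 or more. The test called 3. Ctsd, the aspartic protease cathepsin D, stood at 544 CPM on the infarcted side, against 155 CPM on the non-infarcted side, with 118 to 242 CPM in the other PT libraries and 129 CPM in naive (side difference 1.81, limma, adjusted p = 0.00808). Ctsz, cathepsin Z, stood at 127 and 47.2 CPM in the same order (limma, adjusted p = 0.0240). Lgmn, a protease that processes cathepsins, stood at 120.2 and 68.3 CPM (side difference 0.81, against 0.08 to 0.20 in the other pairs, limma, adjusted p = 0.0446). Grn, progranulin, stood at 83.6 CPM on the infarcted side, against 33.6 CPM on the non-infarcted side without passing (limma, adjusted p = 0.0670). Among widespread members that neurons also use, Lamp1 gave 0.41 and Psap, the saposin precursor, 0.04, the lowest of the list.

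Genes that handle the lipid and iron of debris included 13 of 15 above 0, with a median of 0.37, and none was called. Plin2, the coat protein of lipid droplets, stood at 23.4 CPM on the infarcted side, against 5.05 CPM on the non-infarcted side, and no other PT library held more than 6.71 CPM (side difference 2.01, limma, adjusted p = 0.0797). Apoc1, an apolipoprotein, stood at 19.7 and 7.66 CPM in the same order (1.26). Apoe, the main lipid carrier of the brain, stood at 1962 and 1308 CPM (0.59), and Hmox1, which breaks down heme, at 11.6 and 5.36 CPM (0.99). The lipid pump Abcg1 (0.04) and the iron exporter Slc40a1 (-0.38) lay at the low end of the list.

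Interferon, antigen presentation and chemokine genes had no member called. Interferon genes had a median of 0.77 with 13 of 14 above 0, but PT 7 d LEV had 0.66 for the same genes. Ifi27l2a, an interferon-induced mitochondrial protein, stood at 49.1 CPM on the infarcted side, against 11.7 CPM on the non-infarcted side, and the other pairs ranged up to 1.79 beside its 1.98 (limma, adjusted p = 0.833). Among antigen presentation genes, class I genes were higher on the infarcted side, with H2-D1 at 128 and 57.6 CPM and its light chain B2m at 123 and 56.4 CPM (infarcted, then non-infarcted). Class II genes differed less at PT 7 d than in some other pairs. H2-Ab1 had a side difference of 0.65, against 1.58 in PT 7 d LEV and 1.25 in PT 1 m LEV, and Cd74, the invariant chain, had 0.18 against 1.31 and 1.01. All 9 chemokine and cytokine genes compared lay above 0, with a median of 0.82 against 0.29 in PT 7 d LEV. Over all 22 in the table the median was 0.66, and it was 0.18 where the mean had to reach 5 CPM. The chemokine Ccl12, which draws monocytes, stood at 7.31 CPM on the infarcted side, against 1.43 CPM on the non-infarcted side (1.77, limma, adjusted p = 0.274). Ccl4 had 51 and 5 reads and Ccl3 32 and 4 (infarcted, then non-infarcted), both too low to be compared. Il1b had 3 reads on the infarcted and 1 on the non-infarcted side, Il6 1 on each, and Tnf 5 and 0.

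**Figure D3:**
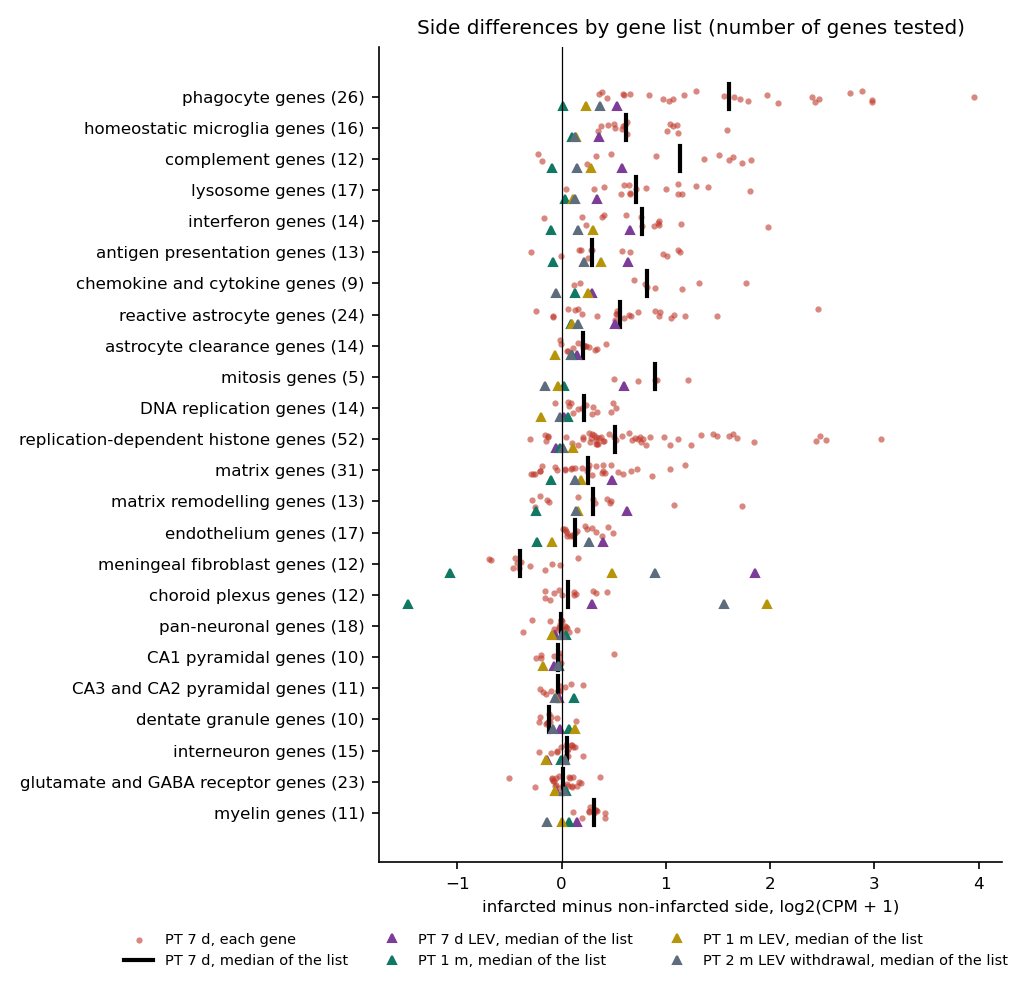
Infarcted minus non-infarcted difference in log2(CPM + 1) by gene list, with the number of genes compared in brackets; red points are single genes at PT 7 d, black bars their median, and triangles the median of the same genes in each of the 4 other pairs. The median is 1.61 for phagocyte genes and 1.14 for complement genes at PT 7 d (0.48 with the complement genes too low to be compared) and stands near 0 for the neuronal lists, while meningeal and choroid plexus genes vary most between pairs.

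Reactive astrocyte genes were higher on the infarcted side with no member called. Of 24 compared, 21 lay above 0 and 5 at 1 or more, with a median of 0.56. The median in PT 7 d LEV was 0.51, so the list differed little between the 7 d pairs, and it was 0.09 to 0.16 at the later times. Gfap, the intermediate filament that defines reactive astrocytes, stood at 678 CPM on the infarcted side, against 352 CPM on the non-infarcted side, with 253 to 518 CPM in the other PT libraries and 277 CPM in naive. Its side difference was 0.94, against 0.19 to 0.66 in the other pairs (limma, adjusted p = 0.555). Vim, the filament protein vimentin, which microglia and vessels also make, stood at 76.0 and 26.5 CPM in the same order (1.49, limma, adjusted p = 0.370). Both infarcted values were the highest of the 11 libraries.

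Lcn2, the iron-binding lipocalin that reactive astrocytes secrete, stood at 13.1 CPM on the infarcted side, against 1.56 CPM on the non-infarcted side. Its side difference of 2.46 was followed by 2.02 in PT 1 m and 1.22 in PT 7 d LEV, so it was wide in other pairs too (limma, adjusted p = 0.640). Cd44, the hyaluronan receptor, stood at 9.31 and 3.55 CPM in the same order (1.18), S1pr3, a receptor for sphingosine phosphate, at 13.5 and 5.86 CPM (1.08), and S100a6, a calcium-binding protein, at 174 and 83.5 CPM (1.05). Serpina3n, a secreted protease inhibitor, stood at 33.9 and 21.1 CPM (0.66). Members at the other end were Sox9 (-0.08), a transcription factor of all astrocytes, Nes (-0.08), the filament nestin, and Amigo2 (-0.24), an adhesion protein.

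Genes by which astrocytes clear transmitter, potassium and water differed little. Their median was 0.20 with 12 of 14 above 0, none at 1 or more and none called. Aqp4, the water channel of astrocyte end-feet, stood at 53.7 CPM on the infarcted side, against 39.7 CPM on the non-infarcted side (0.43, limma, adjusted p = 0.903). Slc1a2, the main glutamate transporter, stood at 1426 and 1237 CPM in the same order (0.20), and Kcnj10, a potassium channel, at 54.5 and 46.5 CPM (0.22). Slc1a3, the other glutamate transporter, gave 0.06, and Slc4a4, a bicarbonate transporter, -0.01.

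Genes of cell division had few reads but stood higher on the infarcted side at 7 d. All 24 mitosis genes in the table lay above 0, with a median of 0.76, and 5 of them were high enough to be compared. In sum they gave 45.3 CPM on the infarcted side (42.2 to 48.5) and 13.1 CPM on the non-infarcted side (11.4 to 15.0), a ratio of 3.44. The other PT libraries gave 11.3 to 26.1 CPM and naive 11.7 CPM, so the infarcted library lay above all others. The 5 genes compared were each highest of the 5 pairs at PT 7 d, and none was called. Since the PT 7 d infarcted library counts toward the mean that admits a gene, the filter favours this outcome. The median of these 5 genes was 0.90, against 0.60 in PT 7 d LEV, 0.02 in PT 1 m, -0.04 in PT 1 m LEV and -0.16 in PT 2 m LEV withdrawal. Birc5, the mitotic protein survivin, stood at 3.77 CPM on the infarcted side, against 1.06 CPM on the non-infarcted side (1.21, limma, adjusted p = 0.693), and Tpx2, a spindle assembly factor, at 4.23 and 1.81 CPM (0.90, limma, adjusted p = 0.555).

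The others are given by their reads. Mki67, the proliferation marker Ki-67, had 30 reads on the infarcted side (1.71 CPM, 1.16 to 2.45) and 5 on the non-infarcted side (0.311 CPM, 0.101 to 0.727). Top2a, the topoisomerase that untangles chromosomes, had 41 reads on the infarcted side (2.34 CPM, 1.68 to 3.18) and 1 on the non-infarcted side (0.0623 CPM, 0.0016 to 0.347). Ube2c, which marks cyclins for destruction, had 74 and 7 in the same order, Cdk1, the mitotic kinase, 29 and 4, and Plk1, a kinase of centrosomes, 16 and 0. The intervals of the sides do not overlap for any of these 5. In the other PT libraries Mki67 reached 0.416 CPM, Top2a 1.25 CPM and Ube2c 1.36 CPM, each below the infarcted side at 7 d. Ccnb1, cyclin B1, had 1 read on the infarcted side and 0 on the other.

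Genes of DNA replication and of the step before it differed less. Over 14 replication genes compared the median was 0.21 with 13 above 0 and none at 1 or more. Pcna, the sliding clamp, stood at 37.6 CPM on the infarcted side, against 35.9 CPM on the non-infarcted side (0.06). Mcm2, a subunit of the replicative helicase, stood at 3.83 and 2.37 CPM in the same order (0.52, limma, adjusted p = 0.913). Rrm2, the limiting subunit of ribonucleotide reductase, was too low to be compared and had 42 reads on the infarcted side (2.40 CPM, 1.73 to 3.24) and 7 on the other (0.436 CPM, 0.175 to 0.898). Genes that control entry into the cycle had a median of 0.10, with Cdkn1a, the inhibitor p21, at 10.2 and 6.35 CPM (0.60) and Ccnd1, cyclin D1, at 26.6 and 22.0 CPM (0.26).

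Replication-dependent histone genes supply histones while DNA is copied, and their messages end in a stem-loop in place of a poly(A) tail, so that random-primed libraries can hold them. The family was taken up after its values were seen, because H3c2 and H2ac10 stood among the genes with the widest differences. Of 52 genes compared, 47 lay above 0, 14 at 1 or more, and 38 were highest of the 5 pairs at PT 7 d, with a median of 0.52 against -0.06 to 0.11 in the other pairs. The test called 5. H3c2 (ENSMUSG00000069267.2, chromosome 13, 23752267 to 23752886) stood at 26.1 CPM on the infarcted side, against 2.24 CPM on the non-infarcted side, with 2.09 to 7.07 CPM in the other PT libraries and 1.64 CPM in naive (side difference 3.06, limma, adjusted p = 0.0233). H2ac10, an H2A gene, stood at 22.2 and 2.99 CPM in the same order (2.54, limma, adjusted p = 0.0240). H3c8 stood at 10.7 and 2.74 CPM (1.64, limma, adjusted p = 0.0240) and H2ac4 at 40.2 and 16.4 CPM (1.24, limma, adjusted p = 0.0429). The other called member has the same reads as a neighbouring gene and is not described.

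The histone genes did not differ as 1 block. H4c4, the H4 gene with the most CAGE reads, stood at 951 CPM on the infarcted side, against 927 CPM on the non-infarcted side (0.04), and H4c3 at 348 and 381 CPM (-0.13). None of the H4 genes reached 1, and the widest of them, H4c12, gave 0.33. In sum the family gave 4351 CPM on the infarcted side, against 3573 CPM on the non-infarcted side, within the 3022 to 6102 CPM of the other PT libraries and near the 4028 CPM of naive. Members of this family are nearly alike in sequence, and the sources used here do not say how reads were shared between them, so single members are uncertain. Of the 13 genes at 1 or more with a RefSeq promoter, 13 held a CCAAT box, as did 39 of the 44 compared in the family (88.6%) and 42.4% of all genes compared that had a promoter.

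**Figure D4:**
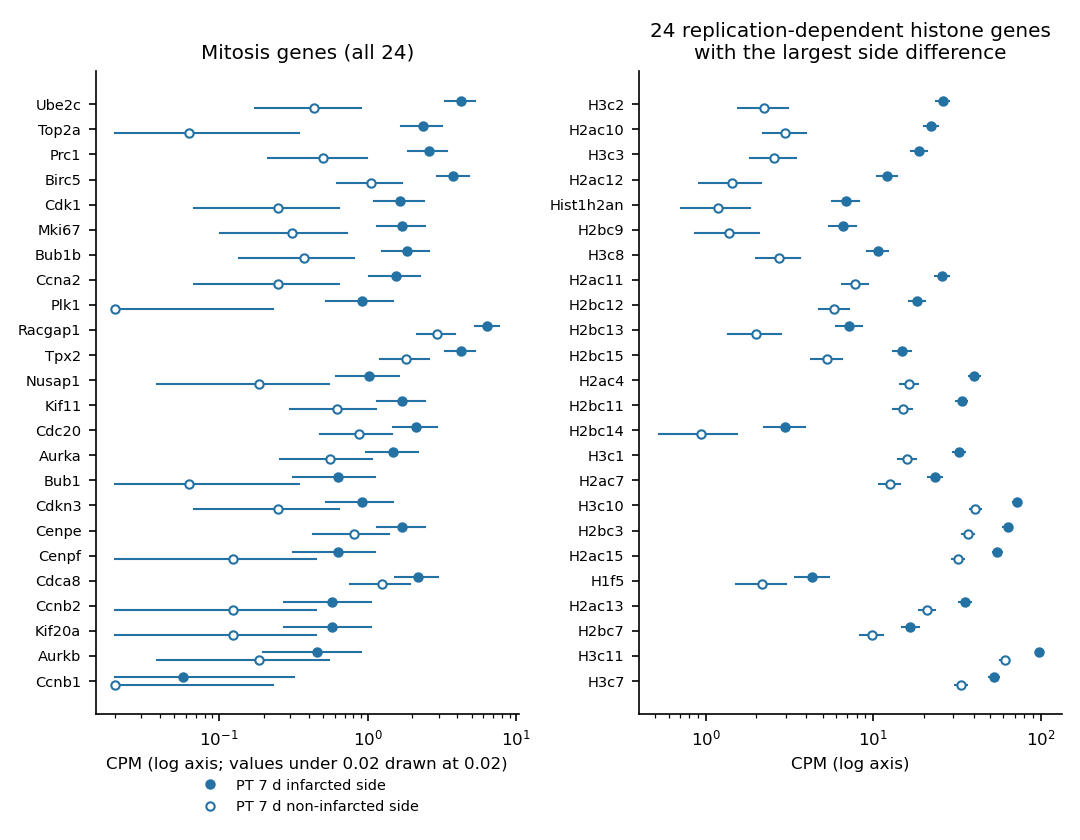
CPM on a log axis on the infarcted side (filled) and the non-infarcted side (open) at 7 d for all 24 mitosis genes (left) and the 24 histone genes with the widest difference (right); horizontal lines are exact Poisson 95% intervals of counting error for 1 library. Each mitosis gene lies higher on the infarcted side, most on few reads, and H3c2 stands at 26.1 against 2.24 CPM.

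Matrix genes differed little as a group at 7 d. Of 31 compared, 23 lay above 0 and 2 at 1 or more, none was called, and 7 were highest of the 5 pairs, with a median of 0.25. PT 7 d LEV had a higher median for the same genes, 0.48. Tnc, the glycoprotein tenascin C of scars, stood at 4.40 CPM on the infarcted side, against 1.37 CPM on the non-infarcted side (1.19, against 0.18 to 0.39 in the other pairs; limma, adjusted p = 0.582). Thbs4, a thrombospondin that astrocytes make after injury, stood at 12.7 and 5.67 CPM in the same order (1.04, limma, adjusted p = 0.866). Vcan, a large proteoglycan, stood at 13.9 and 8.04 CPM (0.73), and Fn1, fibronectin, at 32.9 and 20.3 CPM (0.67). Fibrillar collagens were mixed, with Col1a1 at 0.39, Col3a1 at 0.41, Col1a2 at -0.21 and Col5a1 at -0.27. Col4a1, of the basement membrane of vessels, stood at 34.6 and 23.4 CPM (0.55), and its partner Col4a2 at 74.6 and 69.8 CPM (0.10).

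Genes that cut or stabilise the matrix had a median of 0.31, against 0.63 in PT 7 d LEV, and none was called. Of the 13 compared, 8 lay above 0, where 59.4% of all genes did, and 3 were highest of the 5 pairs. The 2 at 1 or more belong to the plasminogen system. Plaur, the receptor for urokinase, stood at 3.77 CPM on the infarcted side, against 0.436 CPM on the non-infarcted side (1.73, limma, adjusted p = 0.382), and Plau, urokinase, at 5.83 and 2.24 CPM (1.07, limma, adjusted p = 0.833). Plat, the tissue-type activator that neurons make, lay the other way at 19.9 and 23.9 CPM (-0.25). Adam8, a membrane protease of myeloid cells, was too low to be compared and had 110 reads on the infarcted side (6.29 CPM, 5.17 to 7.58) and 7 on the non-infarcted side (0.436 CPM, 0.175 to 0.898), with at most 1.25 CPM in the other PT libraries. Timp1, an inhibitor of metalloproteases, had 35 and 5 reads in the same order. Apart from Mmp12, the metalloproteases differed less or had few reads: Mmp14 stood at 17.9 and 12.6 CPM, Mmp2 at 3.31 and 2.49 CPM, and Mmp9 had 5 reads on the infarcted side and 1 on the other.

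TGF-beta genes, which drive scar matrix, lay above 0 for 12 of 18, with a median of 0.06 and no call. The ligand gene Tgfb1, counted with the cytokines, stood at 20.9 CPM on the infarcted side, against 11.4 CPM on the non-infarcted side (0.82, limma, adjusted p = 0.693), while Tgfb2 (0.02) and Tgfb3 (0.08) were level. Meningeal fibroblast genes, which mark the membranes around the brain, lay below 0 for 11 of 12, at 80.5 CPM in sum on the infarcted and 100.4 CPM on the non-infarcted side. Their medians were -0.40 at PT 7 d, 1.86 in PT 7 d LEV, -1.07 in PT 1 m, 0.49 in PT 1 m LEV and 0.90 in PT 2 m LEV withdrawal. Several collagens are made by these cells, and the part of the membrane in the matrix values was not tested.

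All 17 endothelial genes compared lay above 0, from 0.01 to 0.49 for the lipid transporter Mfsd2a, with a median of 0.13. The same genes had medians of 0.40 in PT 7 d LEV, -0.24 in PT 1 m, -0.09 in PT 1 m LEV and 0.26 in PT 2 m LEV withdrawal. Of the 17, 3 were highest of the 5 pairs at PT 7 d, where 25.0% of all genes were. Of the 20 in the table, 18 lay above 0. Mural cell genes had a median of -0.04. The adhesion molecule Icam1 stood at 4.34 CPM on the infarcted side, against 2.93 CPM on the non-infarcted side (0.44, limma, adjusted p = 0.986).

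Neuronal genes differed little between the sides in sum. The 18 pan-neuronal genes summed to 10912 CPM on the infarcted side and 10911 CPM on the non-infarcted side, with a median of -0.01, 7 above 0 and none called. Snap25, a protein of synaptic vesicle fusion, stood at 1875 CPM on the infarcted side, against 1971 CPM on the non-infarcted side (-0.07, 95% interval -0.38 to 0.24). Rbfox3, the nuclear marker NeuN, stood at 275 and 278 CPM in the same order (-0.02, -0.30 to 0.26), and Map2, of dendrites, at 596 and 573 CPM (0.06, -0.18 to 0.29). These intervals hold 0, and they also hold differences as low as -0.38. The members furthest below 0 were Nefh, the heavy neurofilament of long axons, at 15.7 and 20.6 CPM (-0.37, limma, adjusted p = 0.866), and Slc17a7, the vesicular glutamate transporter, at 570.0 and 692 CPM (-0.28, limma, adjusted p = 0.705).

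Genes that mark single hippocampal fields differed little between the sides too, though most lay slightly lower on the infarcted side. CA1 genes summed to 564 CPM on the infarcted side, against 563 CPM on the non-infarcted side (median -0.03). Of the 10 CA1 genes, 9 lay below 0 and only Wfs1 above it, where 59.4% of all genes lay above 0. Both CA1 sums lay below the 585 to 811 CPM of the other PT libraries and the 710 CPM of naive. CA3 and CA2 genes summed to 1217 and 1229 CPM in the same order (median -0.03), with 8 of 11 below 0. Dentate granule genes summed to 525 CPM on the infarcted (514 to 536) and 573 CPM on the non-infarcted side (561 to 585). Both sums lay within the 480 to 588 CPM of the other PT libraries, and naive held 534 CPM. The median side difference was -0.12, and 9 of 10 genes lay below 0. Of these 10, 3 were lowest of the 5 pairs at PT 7 d, where 15.7% of all genes were, and none was called. C1ql2, a synaptic organiser of mossy fibres, stood at 53.7 and 62.2 CPM (-0.21, limma, adjusted p = 0.898), and Calb1, the calcium buffer calbindin, at 209 and 232 CPM (-0.15, limma, adjusted p = 0.918). Wfs1, an endoplasmic reticulum protein of CA1, went the other way at 117 and 82.7 CPM (0.50, limma, adjusted p = 0.618). Interneuron genes had a median of 0.05, with Gad1 at 180.2 CPM on the infarcted side, against 181 CPM on the non-infarcted side. In the same order, Sst stood at 439 and 401 CPM, and Pvalb at 63.0 and 60.5 CPM. Summed over the list, interneuron genes gave 1681 and 1621 CPM, both below the 2008 CPM of naive. The other PT libraries held 1634 to 2645 CPM, so the non-infarcted sum lay below all of them. The infarcted sum lay within that range.

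**Figure D5:**
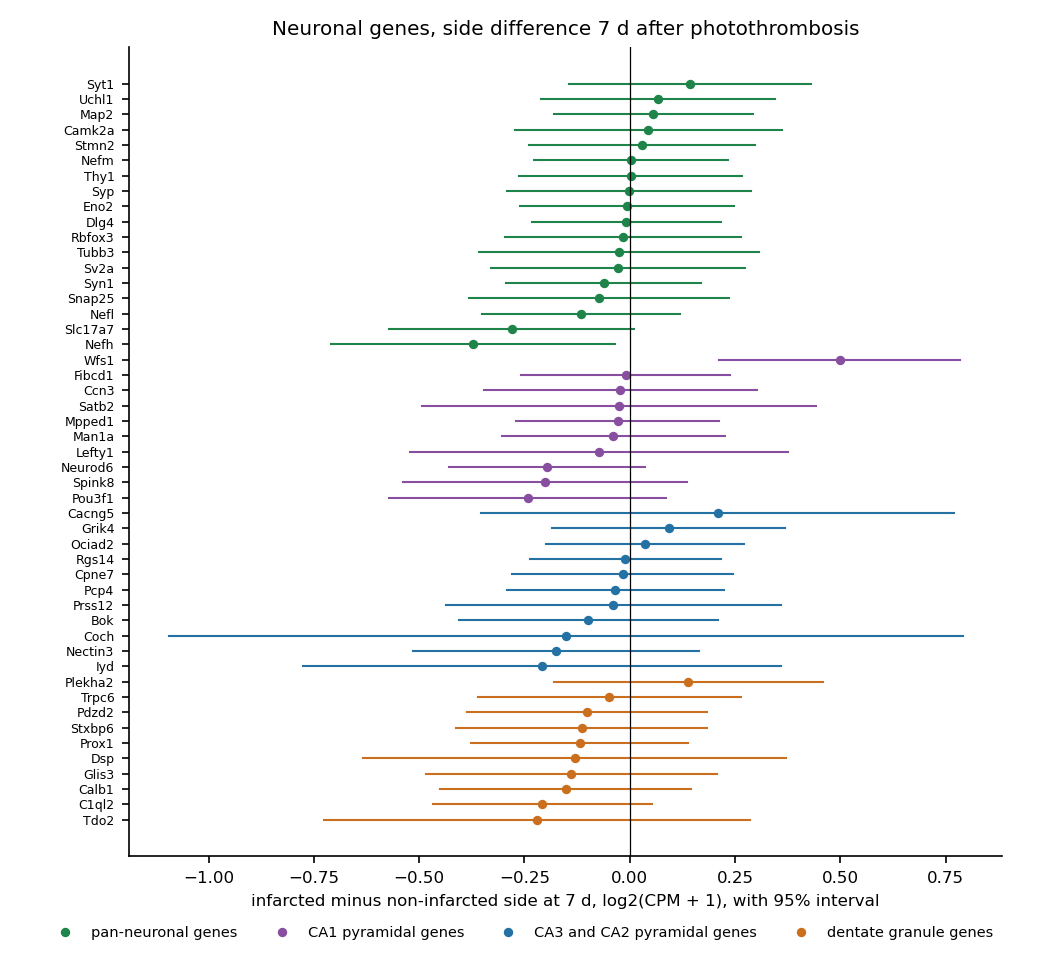
Infarcted minus non-infarcted difference at 7 d in log2(CPM + 1) for 49 neuronal genes, by cell group (colour), each with its 95% interval from the limma fit, whose error comes from the 4 other pairs. The intervals hold 0 for 47 of the 49 genes, with Wfs1 above it at 0.50 and Nefh below it at -0.37.

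Receptor, activity and stress genes of neurons had medians near 0. Of 23 glutamate and GABA receptor genes 12 lay above 0, and their median of 0.02 changed sign with TMM scaling (-0.02). They ranged from -0.50 to 0.37, and none was called. Gria1, an AMPA receptor subunit, stood at 751 and 797 CPM (-0.09). Activity-induced genes had a median of -0.06 and ranged from -0.31 to 0.66, with Fos at 6.06 and 4.05 CPM (0.48) and Npas4 at 3.03 and 3.99 CPM (-0.31). Atf3, a transcription factor of injured neurons and of other stressed cells, had 38 reads on the infarcted side (2.17 CPM, 1.54 to 2.98) and 9 on the non-infarcted side (0.561 CPM, 0.256 to 1.06), while Gap43 (0.09) and Jun (0.09) did not follow it. Newborn neuron genes had a median of -0.09, with Dcx, doublecortin, at 8.46 and 9.84 CPM.

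Myelin genes formed a narrow group. All 11 lay above 0, between 0.11 and 0.42, with a median of 0.31, and all 11 were highest of the 5 pairs at PT 7 d, though none was called. Mbp, myelin basic protein, stood at 2290.2 CPM on the infarcted side, against 1914 CPM on the non-infarcted side (0.26, limma, adjusted p = 0.866), and Mobp at 242 and 181 CPM (0.41, limma, adjusted p = 0.719). Both infarcted values lay inside the range of the other PT libraries, which reached 3118 CPM for Mbp and 377 CPM for Mobp. Oligodendrocyte precursor genes had a median of 0.15, with Gpr17, of cells about to myelinate, at 7.83 and 4.67 CPM (0.64).

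Genes lower on the infarcted side were few and narrow. Of the 12 at -1 or less, 10 are predicted genes, clones or genes that share reads, and 3 of the 12 code for protein. Pgrmc2 (ENSMUSG00000049940.7, chromosome 3, 41066326 to 41083046), a membrane protein that binds heme, was the only named gene called lower. It stood at 52.4 CPM on the infarcted side, against 95.1 CPM on the non-infarcted side, with 57.0 to 111 CPM in the other PT libraries and 135 CPM in naive. Its side difference of -0.85 compared with -0.04 to 0.46 in the other pairs (limma, adjusted p = 0.0441). The infarcted library was the lowest of the 11. Snord64, a small nucleolar RNA on chromosome 7 (59978808 to 59978874), stood at 3.20 and 7.47 CPM (-1.01), and Snhg14, a long noncoding transcript annotated next to it on the same strand (59307924 to 59975759), at 2.69 and 5.79 CPM (-0.88). Neither passed (limma, adjusted p = 0.718 and 0.833). Ptgds, the prostaglandin D synthase of meninges, choroid plexus and oligodendrocytes, stood at 954 CPM on the infarcted side, against 1688 CPM on the non-infarcted side. Its other pairs ran from -1.40 to 2.35, as meningeal genes did (limma, adjusted p = 0.888).

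Tissue beside the hippocampus was judged by its own genes. Choroid plexus genes summed to 3465 CPM on the infarcted side, against 3200.4 CPM on the non-infarcted side, with a median of 0.06 at PT 7 d against -1.48 to 1.97 in the other pairs. Neocortex, thalamus and striatum genes had a median of 0.13 and ependyma genes 0.20, with none called. Red blood cell genes summed to 42.3 and 40.2 CPM in the same order, and to 108 CPM in naive. The PT 7 d sides were thus matched more closely in choroid plexus than the sides of any PT condition at 1 or 2 months.

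The promoters of the genes at 1 or more, without the histone genes, were described with the same 5 motifs. Of these 123 genes, 92 had a RefSeq promoter. Among the 92, 14 held an AP-1 match (15.2%), 13 a PU.1 match (14.1%) and 21 a TATA box (22.8%). Among the 11574 compared genes with a promoter, these shares were 6.05%, 3.28% and 8.83%. The E-box was matched in 4 of the 92 (4.35%), against 11.4% of all genes compared, and the CCAAT box in 32 (34.8%), against 42.4%. The genes were chosen by their expression, and no test was made.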

How the data were processed

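CAGE libraries of 11 hippocampal samples were analysed, 1 for each side of 5 PT conditions and 1 naive. The authors deposited 1 table of CPM, the reads of a gene scaled to its library's total. Named in the submitters' processing notes, with no role, are the build GRCm38, DESeq2 1.20.0, HISAT2 2.0.5 and BWA 0.7.17. The sources used here do not say how reads were assigned to genes. Values were whole multiples of 1 read within 0.0001 for 100.0% of entries, so reads were recovered and gave exact Poisson intervals (95%), which cover counting error only. Of 22377 genes, 22335 matched GENCODE M21 by identifier, 109 had no read, and 624 had the same reads as another gene.

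The 16057 genes with a mean of at least 1 CPM over the 11 libraries were compared on log2(CPM + 1). In R 4.3.3, limma 3.58.1 fitted terms for condition (the block), side, and side in PT 7 d to the 10 PT libraries (3 residual degrees of freedom, moderated with a mean trend, Benjamini-Hochberg adjustment over all 16057 genes, threshold 0.05). Alternatives were pseudocounts of 0.5 and 5, TMM scaling, other filters, no trend, each other pair left out, edgeR 4.0.16 and DESeq2 1.42.0 on the recovered reads, and a test against 0 that was added after seeing the data. The scripts were tested on simulated data.

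Named were the 20 genes a direction with the widest side difference and at least 5 CPM on the higher side, members of the gene lists, and up to 10 called genes a direction. Clones, predicted genes and genes with the same reads as another were not named, and values of a few further genes are not reported here. The libraries, lists and tests were chosen with earlier results of these data known.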

Additional observations from a re-analysis of the deposited data

Results flagged for a closer look

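The side difference at 7 d without levetiracetam differed from the mean of the other 4 pairs for 24 genes with names of their own, by the limma interaction with a Benjamini-Hochberg adjusted p under 0.05. The values of 23 of them follow, each the PT 7 d side difference minus that mean, in log2(CPM + 1).

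Among phagocyte and myeloid genes the value was 3.82 for Mmp12, 2.50 for Gpnmb, 2.25 for Lgals3, 2.16 for Cd68 and 2.15 for Lyz2. It was 1.86 for Cd52, 1.77 for Cd84, 1.75 for Capg, 1.48 for Tyrobp and 1.36 for Fcer1g. Fcrls gave 1.37 among genes of resting microglia. The C1q chains gave 1.40 for C1qa, 1.34 for C1qc and 1.27 for C1qb. Lysosomal proteases gave 1.52 for Ctsd, 1.14 for Ctsz and 0.67 for Lgmn.

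Ly86, a partner of a Toll-like receptor relative on myeloid cells, gave 1.23. The naming rule does not cover it, and it was added for passing the test, with its values in view. It had 29.1 CPM on the infarcted side, against 9.53 CPM on the non-infarcted side.

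The histone genes gave 2.97 for H3c2, 2.36 for H2ac10, 1.69 for H3c8 and 1.18 for H2ac4. In the opposite direction, Pgrmc2 gave -1.07. Without the PT 1 m LEV pair, 1 of these calls was kept.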

How the results depend on the processing

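The 137 genes higher by at least 1 at 7 d became 53 with a pseudocount of 5 CPM, and 69 where the mean had to reach 5 CPM. The 12 lower ones became 21 with a pseudocount of 0.5 CPM, 0 with 5 CPM, and 5 where the mean had to reach 5 CPM. Where limma called 25 genes higher, the total was 38 with a pseudocount of 5 CPM, 1 over all genes with any read, 1 without the mean trend, and 16 with DESeq2. It was 75 when the difference was tested against 0, an alternative added after seeing the data. Leaving out a pair gave 1 to 48 higher and 0 to 11 lower, where the main fit gave 3 lower, and the count lower was 0 over all genes with any read and 0 without the trend. The edgeR fit called 22 higher and 3 lower. Shared with the 28 main calls were 25 in edgeR, 18 in DESeq2, 24 with TMM and 1 over all genes. Mmp12 passed in all 12 settings that gave it a value (adjusted p 3.002e-06 to 0.01346). No other called gene passed in more than 10 settings. Capg passed in 4 of 13, Lgmn in 5, Fcrls in 6 and Lyz2 in 7, and Cd84 in 7 of 12.

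With a pseudocount of 5 CPM the list medians shrank to 1.00 for phagocyte genes, 0.70 for complement, 0.43 for interferon, 0.48 for chemokine, 0.29 for reactive astrocyte, 0.44 for mitosis, 0.40 for histone and -0.040 for activity-induced genes. Over all genes with a read they were 0.48 for complement and 0.18 for cycle entry genes. Where the mean had to reach 5 CPM they were 0.65 for antigen presentation, 0.18 for chemokine and 0.23 for neocortex, thalamus and striatum genes. With TMM they were 0.060 for cycle entry and -0.10 for activity-induced genes. The mitosis and blood leukocyte lists had no member left at 5 CPM. The causes were not tested, other than the smaller fold that a larger pseudocount gives by construction.

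Each side is 1 library, and the error comes from 4 pairs that differ in time and drug with 3 residual degrees of freedom. At 956 genes the unadjusted p was under 0.05, of which 551 were higher. The fit pairs the sides within each condition. No paired analysis was possible because the labels give no replicate numbers, other than that pairing by condition.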
